A study of Mus musculus with 4 samples.

Results

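The genes described here encode linker proteins, most of them very large, that tie parts of the cell skeleton to each other, to the nucleus or to the plasma membrane: the nesprins Syne1, Syne2 and Syne3, the spectraplakins Macf1 and Dst, the plakin Plec, the spectrins Sptan1 and Sptbn1, the dystrophin relative Utrn and the membrane scaffold Ahnak. All 10 were found by symbol among the 53465 genes of the count table, each on 1 row, and all 10 had enough counts to be tested. The set was chosen by measured values, namely the lower counts of Macf1 and Syne2 after EGCG treatment. The comparison of EGCG with control libraries had thus already been used and is given below as a description. Calls of these genes come from that same comparison, and nothing is read from them.

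RNA was sequenced from myeloid-derived suppressor cells (MDSCs) of BALB/c mice that carried 4T1 breast tumors, a transplantable mammary carcinoma line of the same strain. Per the labels the spleens were taken on day 21 after injection, while the methods place the cell sorting at 2 weeks and describe the mice as males of 6 weeks, and the cells were bound to magnetic beads through Gr-1, an epitope of Ly-6G and Ly-6C. In the control group (2 libraries) the sorted cells were kept in control medium, and in the EGCG group (2 libraries) in medium with 5 μg/mL epigallocatechin-3-gallate, the main green tea catechin, for 6 h in each case, so that all libraries share the tumor, the sort and the culture. The sources used here do not say if replicate libraries stand for separate mice or only separate wells, so p-values measure the spread between these samples, which may be technical.

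Totals of 17767318 to 18390385 reads were counted on genes in the 4 libraries. Expression is given as CPM, the counts scaled to library size with TMM factors, and fold changes as log2 values with their standard error (SE) from edgeR. Among the markers of the sorted cells, all 15 listed granulocyte genes were above 3 counts, with a summed level of 66326 to 86988 CPM. Lists of other cell types were present at lower sums, and some of them differed between the groups without overlap: the summed level was lower with EGCG for monocyte (1138 and 1185 against 1275 and 1496 CPM), macrophage (305 and 322 against 389 and 392 CPM), endothelial (103 and 110 against 129 and 141 CPM), platelet (159.8 and 160.9 against 183 and 184 CPM) and basophil or eosinophil genes (977 and 1116 against 1145 and 1266 CPM), and higher for B cell (2730 and 2774 against 2398 and 2589 CPM) and T cell genes (114 and 119 against 99.7 and 112.5 CPM). A log2 fold change below 0 was found in 6 of 7 monocyte, 8 of 8 macrophage, 7 of 7 endothelial and 6 of 6 platelet genes tested. It was found in 4 of 7 basophil or eosinophil genes, with a median of -0.03, and in 1 of 7 B cell and 2 of 7 T cell genes. Of all single tested genes, 21.2% had both EGCG libraries below both controls and 21.5% above. The part of these cell types in the values below was not tested. In bulk RNA, fewer cells of a type and less RNA per cell cannot be told apart.

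As background, nesprins sit in the outer nuclear membrane, where their KASH domain holds SUN proteins across the envelope, and their long forms reach out to the actin network. Spectraplakins bind actin and microtubules, plectin ties intermediate filaments to other structures, and spectrin heterodimers form the mesh under the plasma membrane. Neutrophils and their immature relatives have a lobed, soft nucleus that deforms as the cells pass through narrow gaps in tissue.

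Large size was part of how the set was named, though no length was set as a limit. By the union of their exons in GENCODE M21 (GRCm38), 9 of the 10 were longer than 10 kb. Dst (chr1:33908225-34308661) was the longest with 41.2 kb of exon sequence, next to Syne1 (chr10:5020917-5551482) with 40.5 kb, Macf1 (chr4:123349633-123684360) with 31.4 kb and Syne2 (chr12:75818134-76110926) with 26.7 kb. Ahnak (chr19:8989284-9076914) held 19.9 kb, Plec (chr15:76170974-76232574) 18.1 kb, Sptbn1 (chr11:30099395-30268175) 17.5 kb, Utrn (chr10:12382188-12869365) 17.1 kb and Sptan1 (chr2:29965560-30031451) 13.4 kb. Syne3 (chr12:104929933-105009809) was the exception with 5.55 kb. Of the tested genes with a known length, 69.1% were shorter than Syne3 and 96.8% shorter than Sptan1. The gene structures differed: the longest transcript of Syne1 had 146 exons, whereas that of Ahnak had 5. Up to 22 transcripts were annotated for a single gene (Plec), and the counts per gene do not separate them.

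Because the counting ignored strand, as the name of the deposited table states, overlapping genes were examined. The exons of Plec share 205 bases with Parp10 on the same strand, which had 1711 and 1982 counts in the control and 1527 and 1496 in the EGCG libraries, those of Dst share 1037 bases with the antisense transcript Gm26788, which had at most 1 count in a library, and those of Sptbn1 share 134 bases with the antisense gene Gm29237, at 8 to 21 counts. Other exonic overlaps, of Dst with A930005N03Rik (456 bases) and of Syne2 with Mir5101 (10 bases), involve genes with 0 counts in the 4 libraries. Between 0% (Syne3) and 1.42% (Dst) of the 31-base words of the transcripts also occur in transcripts of other genes.

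The promoters are shown for the 4 genes whose start in RefSeq (GRCm38.p6) lay at or nearest to the edge of the annotated gene (0 to 184 bases from it), since the genes were lower together. Each sequence is the 250 bases before the start, 5′ to 3′ on the strand of the gene: Macf1, chr4:123684361-123684610, minus strand, Syne2, chr12:75818068-75818317, plus strand, Ahnak, chr19:8989034-8989283, plus strand, and Sptan1, chr2:29965310-29965559, plus strand. Capitals mark matches on either strand to 1 of 6 motifs, none of which contains another: the GC box with the letters GGGCGG, the CCAAT box, the binding motif of TBP spelled TATAAA (the TATA box), the core of PU.1 sites spelled GAGGAA, the E-box spelled CACGTG, or the AP-1 site spelled TGACTCA.
Macf1: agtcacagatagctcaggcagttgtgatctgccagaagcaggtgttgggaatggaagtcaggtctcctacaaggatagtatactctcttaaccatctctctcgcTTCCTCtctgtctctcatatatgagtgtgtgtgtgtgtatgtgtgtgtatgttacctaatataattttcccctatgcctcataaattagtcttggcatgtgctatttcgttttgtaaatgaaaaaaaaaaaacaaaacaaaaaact
Syne2: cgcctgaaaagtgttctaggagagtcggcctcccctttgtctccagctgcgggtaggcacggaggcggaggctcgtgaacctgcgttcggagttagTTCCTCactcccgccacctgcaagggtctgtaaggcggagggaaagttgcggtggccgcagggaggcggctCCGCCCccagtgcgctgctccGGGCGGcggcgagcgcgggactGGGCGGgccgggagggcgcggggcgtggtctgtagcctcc
Ahnak: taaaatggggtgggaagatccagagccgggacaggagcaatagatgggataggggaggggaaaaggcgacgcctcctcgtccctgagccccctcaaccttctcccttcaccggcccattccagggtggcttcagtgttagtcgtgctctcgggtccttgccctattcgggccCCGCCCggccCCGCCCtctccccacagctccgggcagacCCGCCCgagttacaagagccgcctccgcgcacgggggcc
Sptan1: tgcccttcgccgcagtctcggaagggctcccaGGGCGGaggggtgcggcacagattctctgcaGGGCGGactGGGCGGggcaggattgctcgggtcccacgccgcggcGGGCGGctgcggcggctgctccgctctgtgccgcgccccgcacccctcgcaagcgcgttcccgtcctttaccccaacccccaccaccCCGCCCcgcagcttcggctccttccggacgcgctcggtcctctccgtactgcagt

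The windows were unlike each other. Sptan1 had 5 GC boxes and 31 CpG dinucleotides, Syne2 had 3 GC boxes and 26 CpG, and Ahnak 3 GC boxes and 18 CpG, whereas the Macf1 window had no GC box, 2 CpG and a G+C content of 38.4%. The median over all 32851 windows of the same length was 6 CpG and a G+C content of 52.4%. A PU.1 core was found in the windows of Macf1 and Syne2, and in 23.3% of all windows. GC boxes were found in 32.7% of all windows, CCAAT boxes in 33.8%, TATA boxes in 12.4%, E-boxes in 6.02% and AP-1 sites in 4.46%, and the CCAAT box, TATA box, E-box and AP-1 letters were not in the 4 windows shown. The table of RefSeq windows used here listed 13 for 9 of the 10 genes, Plec being the other. Which start these cells use was not measured.

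The levels were compared per kb of exon, since a long gene collects more reads at the same number of transcripts. In the control libraries Sptan1 stood at 23.5 ± 0.751 CPM per kb (SD, n = 2) and Plec at 23.5 ± 2.96, and they did not differ beyond their spread, nor did Plec and Syne1 (20.8 ± 3.08 CPM per kb). Sptan1 encodes the alpha chain that pairs with the beta chain of Sptbn1, yet Sptbn1 was at 9.48 ± 0.791 CPM per kb, below Ahnak at 13.6 ± 2.51. Syne3 (8.07 ± 0.0744), Macf1 (6.65 ± 0.880), Utrn (3.26 ± 0.0669), Syne2 (2.95 ± 0.258) and Dst (0.631 ± 0.233 CPM per kb) followed. From Syne1 down, the control libraries of neighbouring genes did not overlap. The order was the same in the EGCG libraries, where the levels ran from 19.5 ± 1.15 CPM per kb for Sptan1 to 0.303 ± 0.00418 for Dst (SD, n = 2). Among the nesprins, Syne1 was the most abundant per kb and Syne2 the least. Per kb of the longest transcript, Syne1 ranked above Plec and Sptbn1 above Ahnak, and the other ranks did not move.

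Among the nesprins, Syne1, which encodes nesprin-1, had 16996 and 13479 counts in control replicates 1 and 2 and 11021 and 9605 in EGCG replicates 1 and 2, which made 931, 754, 608 and 538 CPM. The EGCG libraries lay below both controls, and control replicate 1 stood highest. The log2 fold change was -0.56 (SE 0.10). Syne2, the gene of nesprin-2, was at 83.7 and 73.9 CPM without and 54.9 and 53.0 CPM with EGCG. Here the gap between the groups was wider than the differences within them, and the log2 fold change was -0.55 (SE 0.09). Syne3 encodes nesprin-3, a short nesprin that binds plectin rather than actin, and was at 45.1 and 44.5 CPM against 30.3 and 38.7 CPM. Its control libraries were close to each other while the EGCG libraries differed, with a log2 fold change of -0.38 (SE 0.11) that became -0.21 without EGCG replicate 1.

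Of the spectraplakins, Macf1 (the microtubule-actin crosslinking factor) stood at 228 and 189 CPM without and 146 and 139.7 CPM with EGCG. All EGCG values were below the controls, with a log2 fold change of -0.54 (SE 0.09), or 31.4% lower. Dst, which encodes dystonin, had the fewest reads of the set, with 598 and 343 counts for control and 224 and 225 for EGCG (32.7, 19.2, 12.4 and 12.6 CPM). The EGCG libraries were almost equal, whereas control replicate 1 was 0.77 higher than control replicate 2 on the log2 scale. Its log2 fold change of -1.06 (SE 0.19), the lowest of the 10, was -0.62 without control replicate 1.

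Plec, the gene of plectin, was at 464 and 388 CPM without and 304 and 334 CPM with EGCG, a log2 fold change of -0.42 (SE 0.09). The spectrin genes had the smallest differences. Sptan1 went from 322 and 307 CPM to 249 and 271 CPM (log2 fold change -0.27, SE 0.08), and Sptbn1 from 175.5 and 156 CPM to 129.6 and 137 CPM (log2 fold change -0.31, SE 0.08). Both chains of the heterodimer were thus lower by similar amounts, 17.2% and 19.5%. Utrn encodes utrophin, which joins actin to the dystroglycan complex, and was at 56.6 and 55.0 CPM for control and 42.7 and 44.0 CPM for EGCG. Replicates of Utrn were close in both groups, and the log2 fold change was -0.36 (SE 0.08). Ahnak, a scaffold that binds annexin A2 and S100A10 at the plasma membrane, was at 306 and 235 CPM against 157 and 195 CPM. The replicates of Ahnak differed by more than the gap between the groups, and the log2 fold change was -0.62 (SE 0.12).

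**Figure D1:**
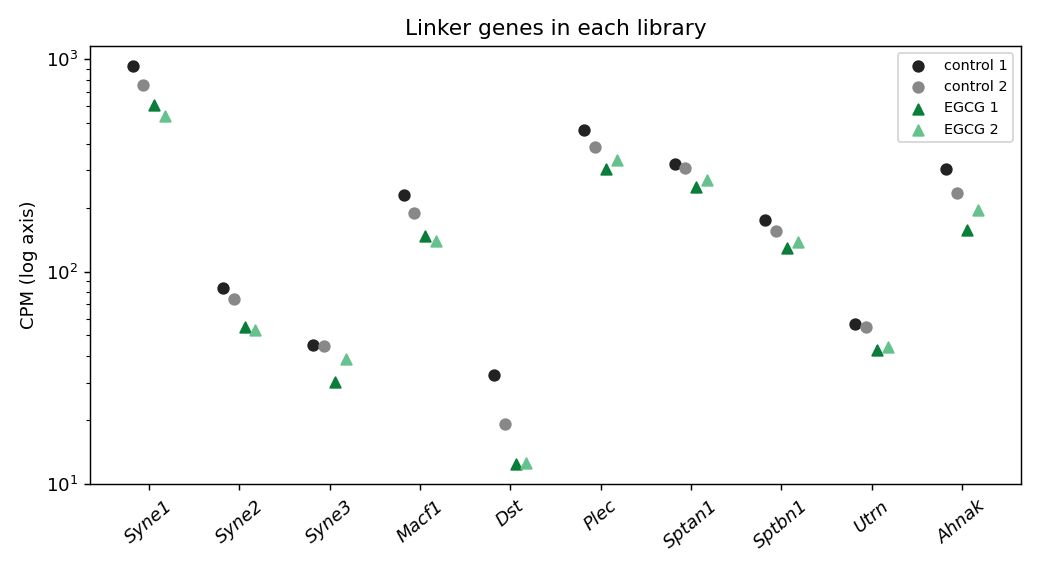
Level of each linker gene in the 4 libraries, in CPM on a log axis, with circles for control and triangles for EGCG libraries. For all 10 genes both EGCG libraries lie below both control libraries, and control replicate 1 lies above control replicate 2.

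In all 10 genes both EGCG libraries were below both control libraries, a pattern seen in 21.2% of the 14682 tested genes and in 49.7% of the 1184 tested genes of 10 kb or more. A log2 fold change below 0 was found in 49.4% of all tested genes and 78.2% of those of 10 kb or more. In the edgeR fit, with p-values adjusted over the whole table, 4 of them (Syne1, Syne2, Macf1 and Dst) had an adjusted p under 0.05, against 0.136% of tested genes in that direction, 0.15% in either and 1.1% of those of 10 kb or more. Nothing is read from these counts, since this comparison chose the set. The edgeR calls among the 10 genes became 0 with the length correction described below (8 at an unadjusted p below 0.05), 0 without a filter on low counts (10 at that level) and 1 (Syne2) with upper-quartile scaling, while DESeq2 called 4. The median log2 fold change of the 10 genes was -0.48, beside 0.0031 for all tested genes. In 6 of the 10 genes the gap between the lowest control and the highest EGCG library was larger than the difference within either group; in Syne3, Dst, Plec and Ahnak it was not.

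Control replicate 1 was above control replicate 2 in all 10 genes. These are the same control values that entered the choice of the set, so the pattern is a description and not independent of that choice. The median difference was 0.22 on the log2 scale, against 0.0014 over all tested genes, and control replicate 1 was the higher of the pair in 50.3% of all tested genes and 66% of those of 10 kb or more. Between the EGCG libraries, replicate 1 was higher in 3 of the 10 genes (Syne1, Syne2 and Macf1), with a median difference of -0.06. As a share of each library, the 10 genes made up 0.272% and 0.221% of reads for control and 0.171% and 0.174% for EGCG.

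Across the data set, longer genes had lower fold changes, and the linker genes were set against this trend. Across 14666 tested genes with a known length, the Spearman correlation of log2 fold change with exonic length was -0.29, and -0.28 with the 10 genes left out. It is given as a description, because genes are not independent replicates and all values come from the same 4 libraries. By length class, the medians were 0.11 for the 1662 genes under 1 kb, -0.02 for the 4830 genes of 4 to 8 kb and -0.18 for the 252 genes of 16 kb or more. The trend was carried by individual libraries to different degrees: the deviation of a library from the mean of the 4 correlated with length at 0.26 in control replicate 1, 0.08 in control replicate 2, -0.22 in EGCG replicate 1 and -0.18 in EGCG replicate 2. Without control replicate 1 the correlation of the fold changes with length was -0.19. With the G+C content of transcripts, the fold changes had a correlation of -0.0024.

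**Figure D2:**
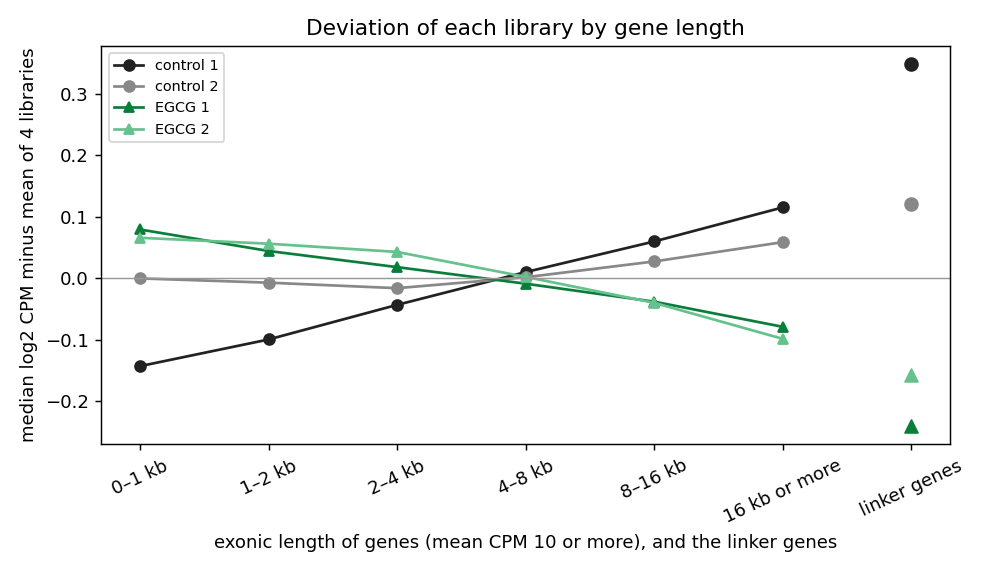
Median deviation of each library (log2 CPM minus the mean of the 4 libraries) for genes with a mean of at least 10 CPM in bins of exonic length, without the linker genes, and for the 10 linker genes at the right. In the control libraries longer genes lie higher (median 0.12 in replicate 1 and 0.06 in replicate 2 for genes of 16 kb or more), in the EGCG libraries lower (-0.08 and -0.10), and the linker genes lie farther out in the same directions.

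The value of a local regression of log2 fold change on length was read at the length of each gene. It was -0.26 for Dst and Syne1, -0.23 for Macf1, -0.21 for Syne2, -0.18 for Ahnak, between -0.13 and -0.16 for Plec, Sptbn1, Utrn and Sptan1, and -0.03 for Syne3. All 10 genes were below the trend, by 0.14 (Sptan1) to 0.79 (Dst) on the log2 scale, with a median difference of -0.30. Syne3, with 5.55 kb, was 0.35 below the trend. Its log2 fold change was -0.38 with all 4 libraries and -0.21 without EGCG replicate 1. Few genes support the trend at the far end: 28 other tested genes had 25 kb or more, with log2 fold changes from -0.59 to 0.58 and a median of -0.25, and the 4 linker genes of that length ran from -1.06 to -0.54 with a median of -0.55. Of the 28 others, 3 were at or below the highest of these 4 (Sorbs2, Cacna1e and Creb5, picked out after their values were seen). Macf1 and Syne2, whose lower counts chose the set, are among these 4. Contrasts of the linker genes with other genes are therefore a description and no test. Among genes of 16 kb or more, the 8 linker genes had a median of -0.55 and the 244 others a median of -0.18. Over the 10 genes, chosen by this comparison and not replicates, the Spearman correlation of log2 fold change with exonic length was -0.83. With genomic span it was -0.41 and with the level per kb 0.38. For the difference from the trend, the correlation with exonic length was -0.49.

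When length was corrected for in every library before the fit, the log2 fold changes were -0.29 for Syne1 (SE 0.08), -0.33 for Syne2 (SE 0.08), -0.35 for Syne3 (SE 0.11), -0.31 for Macf1 (SE 0.08) and -0.78 for Dst (SE 0.17). They were -0.25 for Plec (SE 0.08), -0.14 for Sptan1 (SE 0.08), -0.15 for Sptbn1 (SE 0.08), -0.21 for Utrn (SE 0.09) and -0.44 for Ahnak (SE 0.11). The correction thus left the value of Syne3 nearly where it was while that of Syne1 moved the most among the nesprins. The median of the 10 genes became -0.30.

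**Figure D3:**
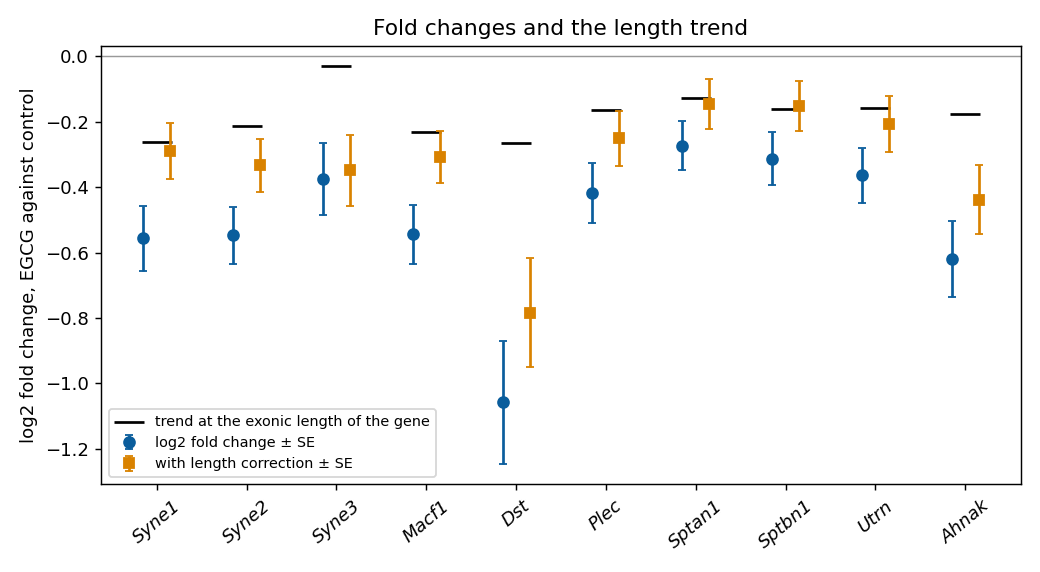
Log2 fold change of each linker gene, EGCG against control, as fitted (circles) and with the length correction (squares), with bars for the SE, and the value of the length trend at the gene's exonic length (black dashes). All fitted values lie below the dash of their gene, from 0.14 below (Sptan1) to 0.79 below (Dst).

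**Figure D4:**
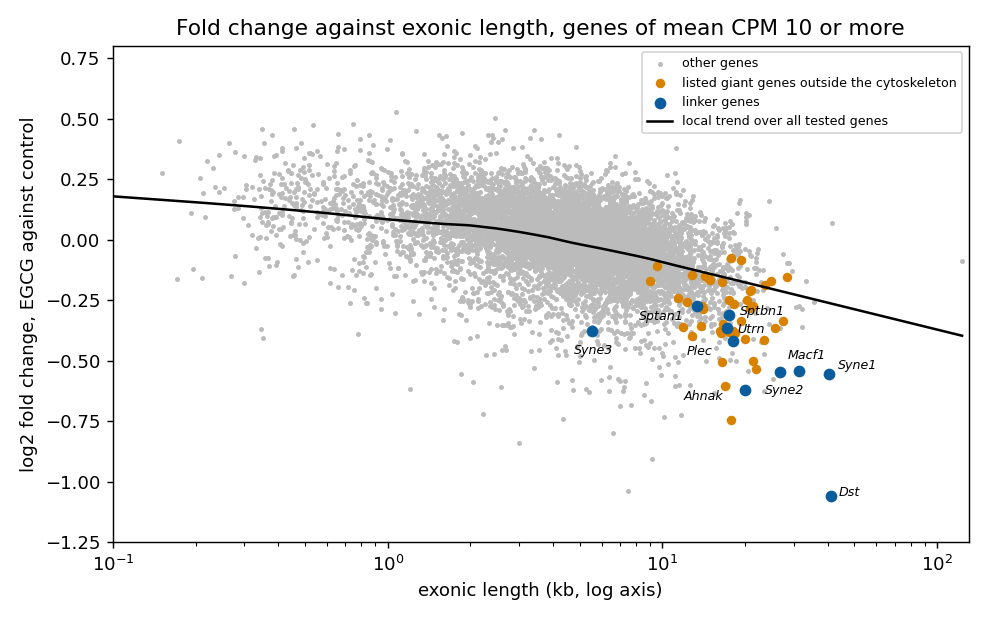
Log2 fold change against exonic length (kb, log axis) for the 8206 genes with a mean of at least 10 CPM, with the local trend over all tested genes as a line. The linker genes (blue) and the giant genes listed as outside the cytoskeleton (orange) lie mostly below the line.

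To see whether partners of the linker genes differed as well, lists of related genes were examined in the same fit. In the 7 lists of cytoskeletal and nuclear envelope partners, 0 genes had an adjusted p under 0.05 in edgeR, while DESeq2 called 1 gene of the microtubule list and 1 of the actin list. The counts at an unadjusted p below 0.05 in edgeR are given for each list, beside 7.02% of all tested genes that were lower and 5.22% that were higher at that level. Of 17 tested nuclear envelope partners of nesprins, 1 was lower (Lmna, the gene of lamin A/C, log2 fold change -0.26, SE 0.09) and 1 higher (Tmem43, 0.19, SE 0.07) at an unadjusted p under 0.05. The median of this list was -0.03, and the SUN partners Sun1 and Sun2 were not among these genes. Of 17 other spectrins and membrane skeleton genes, 5 were lower and 0 higher, with a median of -0.22. With the length correction 3 were lower and 1 higher, and with block and length correction 4 and 3. The smallest p belonged to Epb41l3, at 10.7 and 7.11 CPM in the control and 5.02 and 5.09 CPM in the EGCG libraries (log2 fold change -0.81, SE 0.20, adjusted p of 0.133 by edgeR), to Epb41l2 (-0.25, SE 0.08) and to the erythroid spectrin Sptb (-0.54, SE 0.18). The log2 fold change of Epb41l3 was -0.49 without control replicate 1. In edgeR with all 4 libraries, its adjusted p ran from 0.0436 (library size only) to 0.659 (no filter on low counts). DESeq2 gave it no adjusted p. With the length correction the log2 fold change of Epb41l2 was -0.13.

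The 5 tested plakin and intermediate filament genes had a median of 0.09, with 0 lower and 0 higher at that level. The abundant Vim, which encodes vimentin, was at 1224 and 1255 CPM in the control and 1232 and 1445 CPM in the EGCG libraries (log2 fold change 0.11, SE 0.09). The 8 genes of the dystrophin complex had a median of -0.10, again with 0 lower and 0 higher. Sntb2, the gene of a syntrophin, had a log2 fold change of -0.13 (SE 0.07), which was -0.03 with the length correction. Among the 8 partners of Ahnak, S100a10 (0.27, SE 0.09) and S100a11 (0.23, SE 0.08) were higher at an unadjusted p under 0.05, and Ahnak2 had a log2 fold change of -0.52 (SE 0.25), which was -0.18 when control replicate 1 was left out. With the length correction the value of S100a11 was 0.11 and that of S100a10 0.19, and 1 gene of the list was higher at that level. The list had a median of 0.0061, and S100a10 and S100a11 are short genes of 1.21 and 0.511 kb.

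In the list of microtubule plus-end and motor genes, with 30 tested members and a median of -0.08, 2 had lower and 1 had higher values at that level. Dync1h1 encodes the heavy chain of cytoplasmic dynein, has 15.7 kb of exon sequence, and was at 308 and 273 CPM for control and 200.5 and 226 CPM for EGCG. Dync1h1 had a log2 fold change of -0.45 (SE 0.09) with an adjusted p of 0.0584 by edgeR, which ran from 0.000158 to 0.593 over 13 alternatives. Of 31 actin and integrin linkage genes, with a median of 0.02, 6 were lower and 2 higher at that level. With the length correction these counts were 2 and 2, and with block and length correction 2 and 4. Tln1, the gene of talin, had a log2 fold change of -0.22 (SE 0.08), and Actg1, a cytoplasmic actin of 2.66 kb, one of 0.24 (SE 0.08). The value of Tln1 was -0.13 with the length correction.

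A list of 48 tested giant genes was named as outside the cytoskeleton, with a median length of 17.6 kb. It was written with earlier results of these data known, so its counts are a description. The name does not hold for all, since Ttn encodes titin of the muscle cytoskeleton and Itpr3 has only 9.02 kb of exon. The genes of the list showed the same direction as the linker genes. Of these, 47 had a lower mean with EGCG, both EGCG libraries were below both control libraries in 42, and 36 had an unadjusted p below 0.05 in that direction and 0 in the other. Among the 244 genes of 16 kb or more that are not linker genes, some of which are in this list, the median was -0.18. Of these 244, 208 had a log2 fold change below 0 and 142 (58.2%) had both EGCG libraries below both controls. Over all tested genes the shares were 49.4% and 21.2%. In the list of 48 genes the median log2 fold change was -0.31 and became -0.14 with the length correction and -0.21 without control replicate 1. After Benjamini-Hochberg adjustment in edgeR, 3 of these 48 genes fell, against 0.136% of all tested genes and 1.1% of those of 10 kb or more. DESeq2 called 12 of the list, and edgeR called 0 without a filter on low counts (35 lower and 1 higher at an unadjusted p below 0.05), 0 with the length correction (15 lower and 1 higher at that level) and 1 with the replicate block and length correction. The 3 genes were Rnf213, a ubiquitin ligase, at 270 and 309 CPM in the control and 175 and 206 CPM in the EGCG libraries (log2 fold change -0.60, SE 0.09, adjusted p of 0.0245 by edgeR), Akap9, a Golgi and centrosome scaffold (-0.50, SE 0.09, adjusted p of 0.0420), and Lrp1, an endocytic receptor (-0.75, SE 0.13, adjusted p of 0.0427). Over the 13 alternatives the adjusted p ran from 1.99e-08 to 0.562 for Rnf213, from 0.00627 to 0.562 for Akap9 and from 1.71e-11 to 0.593 for Lrp1. Lrp1 had a log2 fold change of -0.44 when control replicate 1 was left out, and DESeq2 gave it an adjusted p of 0.275. Whether the linker genes differ from these genes was not tested, because they were chosen for low values in this comparison.

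**Figure D5:**
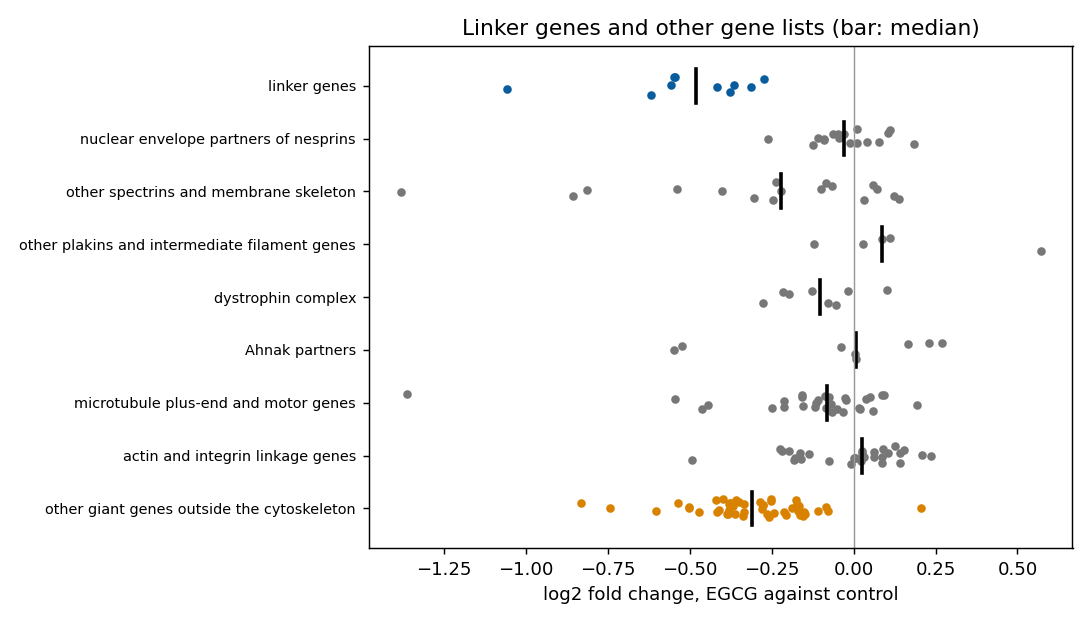
Log2 fold changes of the linker genes (blue), of 7 lists of cytoskeletal, nuclear envelope and motor genes (gray) and of giant genes listed as outside the cytoskeleton (orange), with 1 point per gene and a bar at the median. The lists were written with earlier results of these data known. The medians were -0.48 for the linker genes, -0.31 for the other giant genes and between -0.22 and 0.09 for the other lists.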

How the data were processed

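RNA-seq libraries of sorted MDSCs, 2 without and 2 with EGCG, were grouped by their labels. The authors aligned reads to GRCm38 with STAR 2.6.0c, counted them with featureCounts 1.6.2 on Ensembl release 91 genes (tools per the submitters' processing notes) without regard to strand, and deposited whole-number counts without normalization. From these counts, genes passing edgeR's filterByExpr (minimum count of 10) were scaled by TMM and compared in edgeR 4.0.16 (quasi-likelihood test, legacy form, no block, all 4 libraries), with Benjamini-Hochberg adjustment over 14682 genes and a threshold of 0.05. The SE is the log2 fold change divided by the square root of F. Lengths came from GENCODE M21 (GRCm38), which lacked 16 tested genes. The length trend and the per-library length correction, entered as an offset, are local regressions (span of 0.4) on log2 length. The test and the correction were first tested on simulated data. Differences between replicates exceeded counting noise (mean chi-square of 6.25 per gene for control and 6.07 for EGCG). Members and lists were chosen with earlier results of these data known. Named genes are the 10 members and, per list, all genes called or otherwise up to 3 with the smallest p, and genes overlapping a member; 1 list gene that the rule names is not reported here. Itgam stood on 2 rows, of which that with more counts was used. Kash5 and Eppk1 were not matched by symbol. Alternatives were other filters, scalings, DESeq2 1.42.0, the length correction, a replicate block and leaving out each library. R 4.3.3, Python 3.11.15, pandas 2.3.3, SciPy 1.17.1 and matplotlib 3.10.9 were used.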

Additional observations from a re-analysis of the deposited data

How the results depend on the processing

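All 10 linker genes had a log2 fold change below 0 under each of the 13 alternatives. Their median was -0.30 with the length correction, alone or with a replicate block, and ran from -0.59 to -0.38 with a library left out. The number of linker genes called by edgeR, 4 of 10, became 0 without a filter on low counts, 0 with the length correction, alone or with the block, 1 with upper-quartile scaling and 8 with library size only, and with a library left out it ranged from 4 to 8 (4 without control replicate 1, with Ahnak called and Dst not, and 8 without control replicate 2); at an unadjusted p below 0.05 in edgeR these were 10 without a filter, 8 with the length correction and 9 with block and length correction, and DESeq2 called 4, of which 3 were the same genes (Plec in place of Dst). Over all genes, 20 were called lower and 2 higher: these counts were 0 and 0 without a filter (1018 and 777 at an unadjusted p below 0.05), 135 and 16 with library size only, 50 and 14 with DESeq2, 9 lower with upper-quartile scaling, 6 lower with the length correction, 5 lower with block and length correction, 1 higher with a filter of CPM over 1 and 6 higher with the block, and with a library left out they ran from 72 to 235 lower and from 5 to 119 higher. The correlation of fold change with length was -0.46 for genes with a mean of at least 10 CPM and ran from -0.28 to -0.19 with a library left out. The median of the other giant genes was -0.14 with the length correction, alone or with the block, and ran from -0.36 to -0.21 with a library left out. With a library left out, the log2 fold changes of Dag1 ran from -0.17 to 0.0175, of Pkp4 from -0.24 to 0.0153, of Sgcb from -0.62 to 0.10 and of Vim from -0.0076 to 0.22. The cause of these shifts was not tested. Replicates of the same number did not deviate together (correlation of 0.03), and the replicate block called 24 genes lower, with the same 4 linker genes. Dst, with 224 to 598 counts, is the least precisely measured of the set.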
